A study of Mus musculus with 12 samples.

Results

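Semaphorins, plexins and neuropilins were followed in sorted male germ cells of mice lacking Baz1a. Members were all probes whose gene symbol in the platform's annotation starts with Sema and a digit or with Plxn, or is Nrp1 or Nrp2. This gave 30 of the 19057 named genes and 79 of the 45281 probes on the array: 19 semaphorin genes (55 probes), 9 plexin genes (15 probes) and 2 neuropilin genes (9 probes). Semaphorins are secreted or membrane-bound signals first known for steering growing axons. Most bind plexins, single-pass receptors whose cytoplasmic domain acts on small GTPases of the Ras and Rap families, and the secreted class 3 semaphorins usually need a neuropilin as co-receptor. In other tissues the same proteins act on cell adhesion and the cytoskeleton, in blood vessels and in immune cells.

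Illumina MouseWG-6 v2.0 arrays were hybridized with RNA from round spermatids and pachytene/diplotene spermatocytes, which were enriched from adult testes by flow sorting on Hoechst fluorescence. The groups were Baz1a-/- round spermatids (3 arrays), Baz1a+/- round spermatids (3 arrays), Baz1a-/- spermatocytes (2 arrays) and Baz1a+/- spermatocytes (3 arrays). Each array held cells of 1 mouse, and all mice were on a mixed C57BL/6J and FVB/NJ background. BAZ1A is the accessory subunit of the ACF and CHRAC chromatin remodelers. The mutant allele lacks exon 6 in every cell of the animal, came from 1 targeted ES cell clone and was made by Stra8-Cre excision in the parental germ line, while the controls were heterozygous littermates and not wild type. A further Baz1a-/- spermatocyte array (replicate 1) was left out of the tests by the authors because it appeared contaminated with spermatids, and the same was done here. The annotation names no Baz1a probe, and the deletion itself was not checked on these arrays.

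Levels are given as log2 signal after background correction and quantile normalization, a scale on which probes of different genes cannot be ranked against each other. A probe counts as detected on an array when its detection p-value, which sets its signal against the negative-control beads, is under 0.05. Detected probes made up 36.2 to 41.4% of all probes per array. Round spermatid markers (13 genes tested, among them the protamine gene Prm1 and the transition protein gene Tnp1) averaged 12.32 to 12.44 in Baz1a-/- spermatids, 12.11 to 12.29 in Baz1a+/- spermatids, 8.49 and 10.55 in Baz1a-/- spermatocytes (replicates 2 and 3) and 7.73 to 9.42 in Baz1a+/- spermatocytes. All 13 were detected on every array, spermatocyte arrays included. Spermatocyte markers (13 genes) averaged 7.18 to 7.27 in Baz1a-/- spermatids, 7.19 to 7.46 in Baz1a+/- spermatids, 8.33 on both Baz1a-/- spermatocyte arrays and 8.10 to 8.27 in Baz1a+/- spermatocytes.

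Promoters are shown for the 4 genes whose probes passed a test below (Plxna2, Sema4a, Sema4g and Sema5a) and for Plxnb2, a plexin that was detected on every array and passed none. Each window of 300 bases spans an annotated start site (RefSeq, build GRCm38.p6) and is written 5′ to 3′ on the gene's strand. Capitals mark GGGCGG, the GC box bound by SP1-type factors, and TGACG, the half-site of the cAMP response element, each on either strand. For Sema4a, with 4 annotated start sites, and Plxnb2, with 2, the most upstream one is printed.
Plxna2, chr1:194619579-194619878, plus strand: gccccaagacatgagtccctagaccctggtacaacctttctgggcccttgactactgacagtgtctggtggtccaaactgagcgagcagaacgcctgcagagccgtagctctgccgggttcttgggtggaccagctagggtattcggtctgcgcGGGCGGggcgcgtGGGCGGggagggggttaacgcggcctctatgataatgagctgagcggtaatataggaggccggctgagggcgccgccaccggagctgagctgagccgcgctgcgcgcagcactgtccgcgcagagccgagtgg
Sema4a, chr3:88461133-88461432, minus strand: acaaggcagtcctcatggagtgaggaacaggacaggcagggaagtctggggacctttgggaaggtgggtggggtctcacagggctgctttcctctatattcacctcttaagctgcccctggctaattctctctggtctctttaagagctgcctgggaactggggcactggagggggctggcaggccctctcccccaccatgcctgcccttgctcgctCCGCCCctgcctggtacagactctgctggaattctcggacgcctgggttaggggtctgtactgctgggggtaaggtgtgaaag
Sema4g, chr19:44989094-44989393, plus strand: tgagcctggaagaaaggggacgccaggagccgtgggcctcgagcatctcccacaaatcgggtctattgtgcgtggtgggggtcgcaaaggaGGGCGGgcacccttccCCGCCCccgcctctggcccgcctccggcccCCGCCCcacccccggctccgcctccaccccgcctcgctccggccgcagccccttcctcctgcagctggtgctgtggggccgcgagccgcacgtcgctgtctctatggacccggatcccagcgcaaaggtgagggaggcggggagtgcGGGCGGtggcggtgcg
Sema5a, chr15:32244563-32244862, plus strand: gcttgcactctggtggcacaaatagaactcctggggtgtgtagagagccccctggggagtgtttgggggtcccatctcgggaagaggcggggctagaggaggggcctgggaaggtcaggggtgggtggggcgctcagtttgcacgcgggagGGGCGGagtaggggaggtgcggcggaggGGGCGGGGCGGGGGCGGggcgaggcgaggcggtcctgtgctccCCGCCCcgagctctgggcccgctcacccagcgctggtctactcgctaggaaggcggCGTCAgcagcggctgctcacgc
Plxnb2, chr15:89180739-89181038, minus strand: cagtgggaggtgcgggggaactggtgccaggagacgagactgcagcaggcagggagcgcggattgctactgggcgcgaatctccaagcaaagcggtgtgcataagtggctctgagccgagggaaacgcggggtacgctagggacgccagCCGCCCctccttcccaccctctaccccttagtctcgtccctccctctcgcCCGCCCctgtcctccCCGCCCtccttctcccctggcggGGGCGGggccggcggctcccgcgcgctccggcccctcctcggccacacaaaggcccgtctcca
The Plxna2 window holds 2 GC boxes and has a GC content of 64.7%. Sema4a holds 1 in its most upstream window, which has the fewest CpG dinucleotides of the 5 (4, against 23 to 30 in the others) and a GC content of 59.7%. Sema4g and Plxnb2 hold 4 each and Sema5a holds 5, some of them overlapping. Among these 5 the half-site occurs in the Sema5a window alone. Of the 36 promoter windows found for 25 of the 30 genes, 27 hold a GC box and 3 the half-site. Among all 32851 windows of 300 bases, 35.7% hold a GC box and 20.8% the half-site. The letters TATAAA, searched on both strands, are in 13.6% of all windows and in none of the member windows. The letters CCAAT are in 37.4% of all windows and in 7 member windows. These are matches of letters only and say nothing of binding.

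Few members were detected in these cells. No array detected 43 of the 79 probes (54.4%, against 36.5% of all probes), and 21 were detected on 1 or 2 of the 11 arrays. A further 11 were detected on 3 to 8 arrays and 4 on 9 or more. Only the probes of Plxna2, Plxnb2 and Sema4a were detected on all 11 arrays (3.80% of members, against 23.5% of all probes), and the Sema4b probe on 10. The 36 members that entered the tests are those detected on at least 1 array, and most of them sit close to background.

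**Figure D1:**
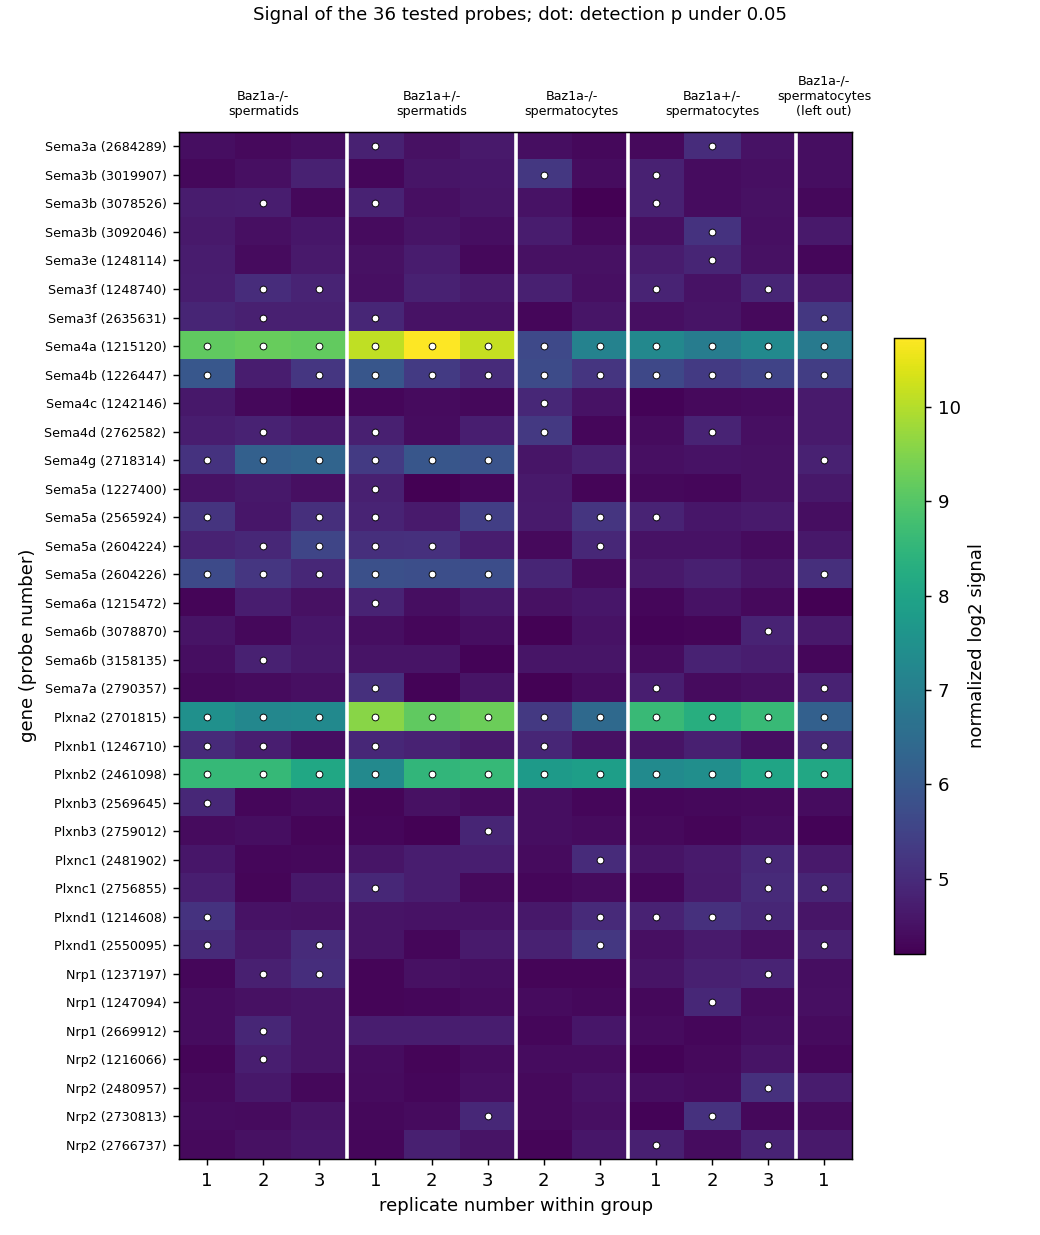
Normalized log2 signal (colour) of the 36 member probes detected on at least 1 of the 11 tested arrays, 1 row per probe and 1 column per array, with Baz1a-/- arrays left of Baz1a+/- arrays and the Baz1a-/- spermatocyte array that was left out at the far right; dots mark a detection p under 0.05. Sema4a, Plxna2 and Plxnb2 stand out with a dot on every array, and most other rows have dots on 1 or 2 arrays.

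The secreted class 3 semaphorins, which signal through neuropilins, had 20 probes for 7 genes. Of these, 7 probes of Sema3a, Sema3b, Sema3e and Sema3f were detected on at least 1 array, none of them on every array of a group, and Sema3c, Sema3d and Sema3g were detected on none. Their co-receptors Nrp1 and Nrp2 had 7 of 9 probes detected on at least 1 array, none of them on every array of a group either. Class 4 members are membrane-bound: Sema4a, Sema4b, Sema4c, Sema4d and Sema4g had 5 of 11 probes detected and Sema4f had none. Sema5a, a transmembrane semaphorin with thrombospondin repeats, had 4 of 5 probes detected. Class 6 transmembrane semaphorins had 3 of 16 probes detected (Sema6a and Sema6b, with Sema6c and Sema6d at none), and the GPI-anchored Sema7a had 1 of 3. Among the receptors, probes of Plxna2, Plxnb1, Plxnb2, Plxnb3, Plxnc1 and Plxnd1 were detected on at least 1 array, and those of Plxna1, Plxna3 and Plxna4 on none. In total 36 probes of 21 genes were tested, and not detected means only that the signal did not exceed the negative controls. By the same rule, 45.6% of member probes and 63.5% of all probes were detected on at least 1 array. The threshold lets about 5% of unexpressed probes pass on each array, so detection on 1 array is weak evidence of expression. Differences between the classes in these counts were not tested.

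The first comparison asks which members differ between mutant and control round spermatids, the cells that go on to form sperm. Plxna2, a receptor for class 6 and, with neuropilins, class 3 semaphorins, was about 4-fold lower in mutants, and Sema4a, a membrane semaphorin known from immune cells and retina, about 2-fold lower. These were 2 of the 36 tested members (5.56%), both lower. Calls need a fold of at least 2 and a Benjamini-Hochberg adjusted p under 0.05 over all tested probes (limma), and 4.03% of the 28751 tested probes passed, with 1.16% of all tested probes passing as lower. The members' share was near the share passing in either direction and above the share passing as lower, each time from 2 probes. The median difference was 0.05 log2 over the 36 members and -0.03 over all tested probes.

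Plxna2 read 7.48, 7.22 and 7.30 log2 in Baz1a-/- spermatids, against 9.58, 9.13 and 9.27 in Baz1a+/- spermatids. The groups did not overlap: the highest mutant array was well under the lowest control array. The difference was -1.98 log2 (SE 0.22, 95% interval -2.47 to -1.50; limma adjusted p = 0.000123), a fold of 3.95. Over the 19 alternatives it ranged between -2.11 and -1.53 and passed in each, with an adjusted p of at most 0.00178. It rests on 1 probe (ILMN_2701815), since the other Plxna2 probes (ILMN_1226892 and ILMN_2482866) were detected on no array. ILMN_2482866 has the same reference transcript in the annotation as ILMN_2701815, yet averaged 4.28 log2 in Baz1a+/- spermatids. The Plxna2 probes thus disagree on whether the gene is expressed.

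Sema4a (ILMN_1215120) read 9.15, 9.21 and 9.15 log2 in Baz1a-/- spermatids, against 10.10, 10.73 and 10.17 in Baz1a+/- spermatids. All mutant arrays lay below all control arrays, and the mutant arrays were nearly equal. The difference was -1.17 log2 (SE 0.26, 95% interval -1.74 to -0.60; limma adjusted p = 0.016), a fold of 2.25. This call depends on single arrays: it ended without Baz1a-/- replicate 2 (-1.19, adjusted p = 0.0704), without Baz1a-/- replicate 3 (-1.16, adjusted p = 0.076) and without Baz1a+/- replicate 2 (-0.96, adjusted p = 0.0741). It also ended when all 45281 probes were tested (-1.16, adjusted p = 0.0576). Its adjusted p ranged between 0.00497 and 0.076 over 19 alternatives.

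No other member passed, and the other 34 differed by -0.54 to 0.36 log2. Sema5a (ILMN_2604226) read 5.68, 5.24 and 4.93 log2 in Baz1a-/- spermatids and 5.81, 5.77 and 5.74 in Baz1a+/- spermatids. Its mutant arrays were all lower than its control arrays, by -0.54 log2 (SE 0.19, limma adjusted p = 0.114), and did not pass. Plxnb2, a receptor for class 4 semaphorins, read 8.58, 8.59 and 8.10 log2 in Baz1a-/- spermatids and 7.27, 8.49 and 8.58 in Baz1a+/- spermatids. The groups overlapped, with control replicate 1 the lowest of all 6, and the difference was 0.17 log2 (95% interval -0.49 to 0.83; limma adjusted p = 0.839). Sema4g, a class 4 membrane semaphorin, read 5.17, 6.21 and 6.31 log2 in Baz1a-/- spermatids and 5.31, 5.95 and 5.89 in Baz1a+/- spermatids, also overlapping (0.22 log2, SE 0.25; limma adjusted p = 0.721). Sema3a (ILMN_2684289), a repulsive axon guidance signal, was detected on no mutant array and on 1 control array (-0.23 log2, SE 0.19; limma adjusted p = 0.598). In all, 5 of the 36 members (13.9%) had mutant arrays wholly above or below the control arrays, against 23% of all tested probes.

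Markers of somatic testis cells also differed between these groups, and always toward higher in mutants where they passed. The mean of 10 myoid and fibroblast markers was 6.04 to 6.07 in Baz1a-/- spermatids and 5.19 to 5.39 in Baz1a+/- spermatids (2 of 10 passed). For 4 Leydig cell markers the means were 6.31 to 7.46 in Baz1a-/- spermatids and 5.33 to 6.23 in Baz1a+/- spermatids (2 of 4 passed). Of these, Cyp11a1, which defines steroid-producing cells, was detected on 3 mutant arrays and on 0 control arrays. Cyp17a1 and Insl3 were detected on 3 arrays of each genotype. Cyp17a1 read 7.62 to 8.67 in Baz1a-/- and 5.20 to 6.66 in Baz1a+/- spermatids. Insl3 overlapped, at 7.42 to 10.61 in Baz1a-/- and 6.78 to 9.51 in Baz1a+/- spermatids. Endothelial markers averaged 5.51 to 5.95 in Baz1a-/- spermatids and 4.93 to 5.32 in Baz1a+/- spermatids (2 of 10 passed), and macrophage markers 5.51 to 5.76 in Baz1a-/- spermatids and 5.11 to 5.14 in Baz1a+/- spermatids (1 of 8 passed). Sertoli cell markers averaged 5.61 to 6.16 in Baz1a-/- spermatids and 5.47 to 6.00 in Baz1a+/- spermatids (1 of 7 passed). Median differences over the genes of a list were 0.36 log2 for myoid and fibroblast, 1.14 for Leydig and 0.11 for endothelial markers. For macrophage and Sertoli markers they were 0.19 and 0.16 log2. The endothelial list includes Cldn5, which the paper names among the genes strongly raised in mutant spermatids. Spermatogonial markers (0 of 8) and neuron and glia markers (0 of 5) did not pass in spermatids. The part of these cells in the lower Plxna2 and Sema4a signals was not tested. In sorted populations, fewer cells that carry a transcript and less of it per cell cannot be told apart.

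**Figure D2:**
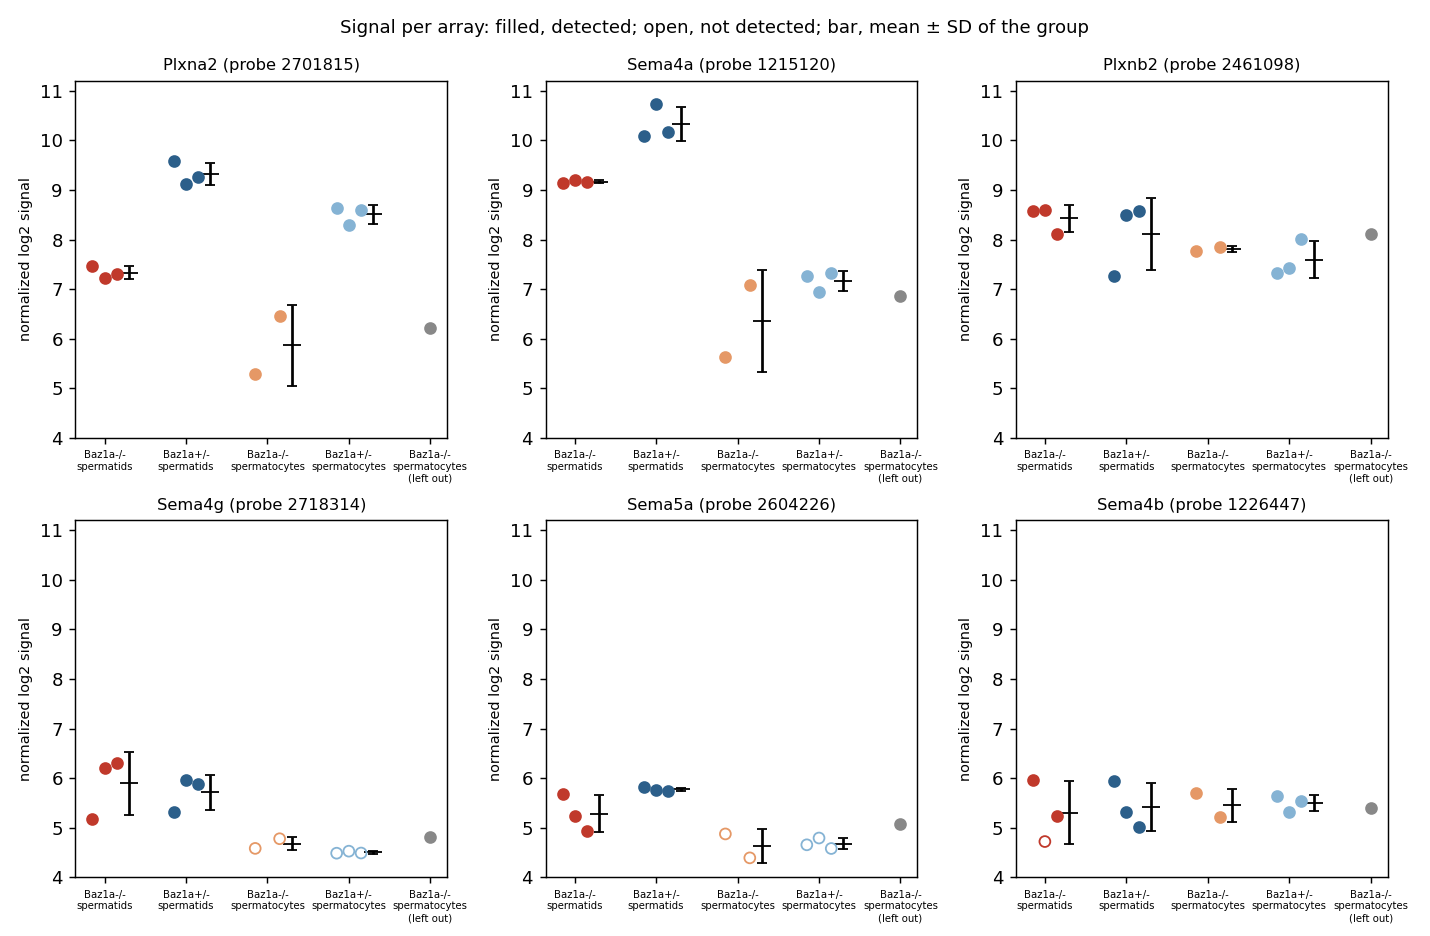
Normalized log2 signal of 6 member probes on each array, by group, with Baz1a-/- left of Baz1a+/- within each cell type (3 arrays per group, 2 for Baz1a-/- spermatocytes) and the array that was left out at the right; filled points were detected, open points were not, and bars give the mean ± SD. Plxna2 is lower in mutants of both cell types, Sema4a is lower in mutant spermatids and Plxnb2 overlaps between genotypes.

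The same comparison in spermatocytes, with 2 mutant arrays against 3 control arrays, found 1 of 36 members lower (2.78%) and none higher, against 0.41% of all tested probes passing in either direction and 0.146% as lower. The all-probe count behind that share, 118, ran between 31 and 612 when 1 array was left out. The paper, at the same cutoffs but with poor-quality probes removed, called only a few probes in spermatocytes, all higher in the mutant. The member called lower here was Plxna2, so the paper did not call it lower in these cells. Plxna2 read 5.28 and 6.45 log2 in Baz1a-/- spermatocytes (replicates 2 and 3), against 8.63, 8.29 and 8.60 in Baz1a+/- spermatocytes. Both mutant arrays were far below every control array, though they differed from each other by more than the controls did. The array left out read 6.21, between them. The difference was -2.66 log2 (SE 0.29, 95% interval -3.29 to -2.03; limma adjusted p = 0.00122), a fold of 6.32. Its adjusted p ranged between 4.73e-05 and 0.0266 over 18 alternatives, with differences of -3.25 to -1.61 log2. Endothelial markers averaged 5.12 and 5.14 in Baz1a-/- spermatocytes and 4.69 to 4.76 in Baz1a+/- spermatocytes (1 of 10 passed), myoid and fibroblast markers 5.19 and 5.21 in Baz1a-/- and 4.86 to 4.99 in Baz1a+/- spermatocytes (0 of 10 passed), and neuron and glia markers 5.16 and 5.53 in Baz1a-/- and 4.99 to 5.04 in Baz1a+/- spermatocytes (0 of 5 passed; 2 at an unadjusted p under 0.05). Median differences over the genes of these lists were 0.15, 0.13 and 0.25 log2, in that order. Sertoli markers went the other way, with a median of -0.37 log2 (means 4.75 and 5.69 in Baz1a-/- and 5.11 to 6.02 in Baz1a+/- spermatocytes). Medians were -0.17 log2 for spermatogonial, 0.16 for Leydig, 0.05 for macrophage and 0.65 for round spermatid markers. No gene of these further lists passed. The part of these markers in the Plxna2 reading was not tested.

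Sema4a read 5.64 and 7.09 log2 in Baz1a-/- spermatocytes (replicates 2 and 3), against 7.26, 6.94 and 7.32 in Baz1a+/- spermatocytes. Replicate 2 was below all controls and replicate 3 was within their range. The difference of -0.82 log2 (SE 0.34; limma adjusted p = 0.823) did not pass. Without Baz1a-/- replicate 3 it was -1.55 (limma adjusted p = 0.0243), which passed, and this leaves 1 mutant array whose spread is assumed to be that of the other groups. Replicate 3 is also the array with the higher round spermatid marker mean (10.55, against 8.49 in replicate 2), and the paper scored it as the less pure sort. Plxna2 too read higher in replicate 3 than in replicate 2. The part of spermatid carry-over in the Sema4a and Plxna2 readings was not tested. Plxnb2 read 7.76 and 7.86 log2 in Baz1a-/- spermatocytes and 7.33, 7.43 and 8.02 in Baz1a+/- spermatocytes, and these overlapped (0.30 log2, SE 0.40; limma adjusted p = 1).

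A few more probes had non-overlapping spermatocyte groups and did not pass. Plxnd1 (ILMN_2550095), a vascular plexin that binds Sema3e, differed by 0.50 log2 (SE 0.24; limma adjusted p = 0.921) and its other tested probe (ILMN_1214608) by -0.13. Sema4c (ILMN_1242146) differed by 0.41 log2 (SE 0.21; limma adjusted p = 1), with a detected signal on 1 mutant array and on 0 control arrays. Nrp1 (ILMN_1237197) differed by -0.38 log2 (SE 0.24; limma adjusted p = 1), with a detected signal on 1 control array and on 0 mutant arrays. Groups did not overlap for 5 of 36 members (13.9%), against 20.3% of all tested probes. The median difference was -0.03 log2 over members and -0.01 over all tested probes.

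**Figure D3:**
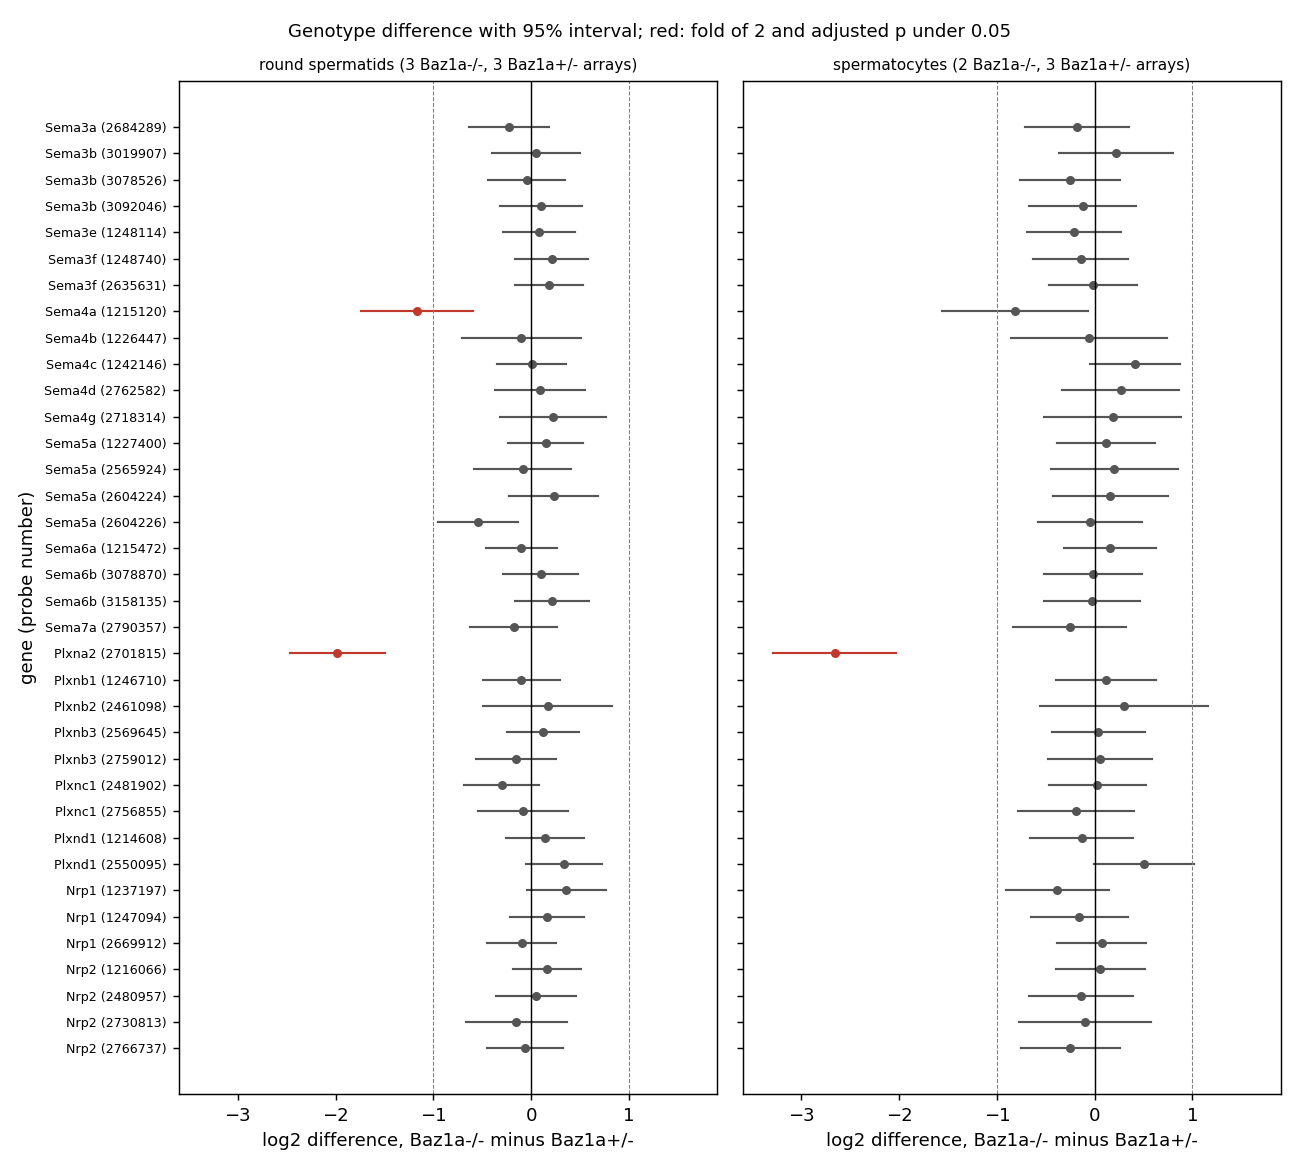
Log2 difference between Baz1a-/- and Baz1a+/- cells for each of the 36 tested member probes, with 95% intervals from the limma fit, in round spermatids (left) and spermatocytes (right); dashed lines mark a fold of 2 and red marks probes that passed. Plxna2 lies left of the dashed line in both panels and Sema4a passes in spermatids; the other intervals mostly include 0.

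Whether the genotype difference itself depended on cell type was tested as an interaction (spermatid difference minus spermatocyte difference). No member passed in limma, 1 of 36 did at an unadjusted p under 0.05, and 0.153% of all tested probes passed by the full rule and 7.01% at the unadjusted one. The all-probe count ran between 17 and 134 with 1 array left out. The 1 was Nrp1 (ILMN_1237197), chosen here after its values were seen, at 0.74 log2 (SE 0.31; limma adjusted p = 0.618). For Plxna2 the interaction was 0.68 log2 (SE 0.37; limma adjusted p = 0.78) and for Sema4a it was -0.35 log2 (SE 0.43; limma adjusted p = 0.929). The Sema4a call in spermatids and its absence in spermatocytes are therefore not shown to differ.

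The other axis of the study is development, round spermatids against spermatocytes, within each genotype. Sema4a was about 7-fold higher in spermatids of mutants and about 9-fold higher in those of controls, and Sema4g was higher in both. Plxna2 passed in mutants and Sema5a in controls. In mutants 3 of 36 members passed (8.33%), all higher, against 31.3% of all tested probes, 14.8% as higher. In controls 3 of 36 passed (8.33%), all higher, against 28.3% of all tested probes, 13% as higher. The members' shares were thus below both backgrounds. These shares were not matched for signal level, and most tested members sit close to background. Somatic cell markers moved along this axis too, with these counts: of those tested, 2 of 4 Leydig, 3 of 8 macrophage, 3 of 10 myoid and fibroblast, 2 of 10 endothelial and 1 of 7 Sertoli markers were higher in spermatids of mutants, and 0 of 4, 1 of 8, 1 of 10, 1 of 10 and 0 of 7 in those of controls. The myoid and fibroblast means were 6.04 to 6.07 in mutant spermatids and 5.19 to 5.21 in mutant spermatocytes, and 5.19 to 5.39 in control spermatids and 4.86 to 4.99 in control spermatocytes. The part of these cells in the differences below was not tested. The genotypes use different arrays, and each mouse gave both a spermatid and a spermatocyte array.

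Sema4a differed between spermatids and spermatocytes by 2.81 log2 in mutants (SE 0.36; limma adjusted p = 3.15e-05) and by 3.16 log2 in controls (SE 0.25; limma adjusted p = 2.38e-07). The lowest spermatid array, 9.15 in a mutant, was above the highest spermatocyte array, 7.32 in a control. Plxna2 differed by 1.45 log2 in mutants (SE 0.30; limma adjusted p = 0.00147). In controls it differed by 0.77 log2 (SE 0.21; limma adjusted p = 0.00799), under the fold of 2. The mutant call rests on spermatocyte replicate 2, without which the difference was 0.87 log2 (limma adjusted p = 0.0172), and it also ended without background correction (0.73 log2, limma adjusted p = 0.00516).

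Sema4g was detected on all 6 spermatid arrays and on none of the 5 spermatocyte arrays. Its spermatocyte readings were 4.58 and 4.78 log2 in mutants and 4.48, 4.53 and 4.49 in controls, none above background. Sema4g was higher in spermatids by 1.31 log2 in mutants (SE 0.34, limma adjusted p = 0.00649). In controls the difference was 1.27 log2 (SE 0.24, limma adjusted p = 0.000485). These fits use the undetected spermatocyte readings, which are only upper limits. Set against a detection floor instead, the spermatid mean was 2.08-fold higher in mutants and 1.88-fold higher in controls, and these folds were not tested. The floor is the lowest signal that counts as detected on each spermatocyte array, or the probe's own signal where that was higher. Both calls ended without background correction (0.45 log2 in mutants and 0.42 log2 in controls) and with an offset of 50 in that correction (0.73 log2 in mutants and 0.65 log2 in controls), since the differences then came under a fold of 2. The other Sema4g probe (ILMN_2560329) was detected on no array.

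Sema5a (ILMN_2604226) was likewise detected on all 6 spermatid arrays and on none of the 5 spermatocyte arrays. It was higher in spermatids by 0.59 log2 in mutants (SE 0.25, limma adjusted p = 0.0852). In controls the difference was 1.09 log2 (SE 0.18, limma adjusted p = 0.000162). It passed in controls only, and no interaction of genotype and cell type passed. Set against the same detection floor, the spermatid mean was 1.36-fold higher in mutants and 1.95-fold higher in controls, and these folds were not tested. The control call ended without background correction (0.35 log2), with an offset of 50 (0.57 log2) and with median scaling (0.95 log2). Its other probes did not pass. The nearest, ILMN_2604224, which has the same reference transcript in the annotation, differed by 0.51 log2 in mutants (SE 0.28; limma adjusted p = 0.186) and by 0.44 log2 in controls (SE 0.20; limma adjusted p = 0.0885).

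Plxnb2 differed between spermatids and spermatocytes by 0.58 log2 in mutants (SE 0.41; limma adjusted p = 0.32) and by 0.71 log2 in controls (SE 0.29; limma adjusted p = 0.0615). Control spermatid replicate 1 sets the control value: without it the difference was 1.03 log2 (limma adjusted p = 0.00141) and passed. Sema4b, another class 4 member, read 5.97, 4.72 and 5.23 log2 in mutant spermatids, 5.95, 5.31 and 5.0 in control spermatids, 5.69 and 5.22 in mutant spermatocytes and 5.63, 5.31 and 5.53 in control spermatocytes. All of its groups overlapped, and only mutant spermatid replicate 2 was not detected. Nrp1 (ILMN_1237197) did not pass in mutants (0.48 log2, SE 0.25; limma adjusted p = 0.165). Plxnd1 (ILMN_1214608), detected on all 3 control spermatocyte arrays and on 0 control spermatid arrays, did not pass in controls (-0.39 log2, SE 0.18; limma adjusted p = 0.0894). Cell types did not overlap for 8 of 36 members in mutants (22.2%, against 58.2% of all tested probes) and for 8 of 36 in controls (22.2%, against 51.4%). Median differences were 0.07 log2 over members in mutants and 0.03 in controls, against -0.03 and -0.05 over all tested probes.

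Genes that work beside the members were followed in a pair of lists, each gene by its brightest tested probe. The first held 20 co-receptors and other partners, of which 13 were tested. Between mutant and control spermatids 1 of 13 was higher and 0 lower: Nrcam, an immunoglobulin-family adhesion protein that associates with neuropilins in neurons, at 1.26 log2 (SE 0.22; limma adjusted p = 0.00348), through 1 of its 2 tested probes. This call ended without background correction (0.48 log2) and with an offset of 50 in it (0.77 log2). In spermatocytes 0 of 13 passed by genotype (limma; 3 at an unadjusted p under 0.05), and Flt1 and Ncam1 passed under some alternatives. Between spermatids and spermatocytes 3 of 13 were higher in mutants (Chl1, 3.62 log2; Itga1, 3.16 log2; Nrcam, 1.44 log2) and 3 of 13 in controls (Chl1, 3.98 log2; Itga1, 2.78 log2; Flt1, 1.49 log2). All 3 tested probes of Chl1 passed in both genotypes, but only 1 of the 2 of Itga1, and 1 of the 2 of Nrcam in mutants. Among all tested probes 14.8% were higher in mutants and 13% in controls, counted over every probe and not over the brightest of each gene. Chl1 is a relative of Nrcam, Itga1 the alpha subunit of an integrin that Sema7a binds, and Flt1 a VEGF receptor.

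The other list held 40 cytoplasmic effectors that act below plexins, of which 28 were tested. By genotype 0 of 28 passed in spermatids and 0 of 28 in spermatocytes (limma; 6 and 1 at an unadjusted p under 0.05). Of these genes 1 (the Rac exchange factor Tiam1) passed in spermatids when no fold was required, and 2 (Dpysl3 and Gsk3b) passed in spermatocytes when the array left out was kept. Between spermatids and spermatocytes of mutants 6 of 28 were higher and 1 lower, and of controls 8 of 28 were higher and 0 lower, against 14.8% and 13% of all tested probes that were higher. The list takes the brightest probe of each gene while the background counts every tested probe, so these shares are not like for like. Mical3, Gsk3b, Mras and Dpysl2 each have 2 tested probes of which only 1 passed. Dpysl3, one of the collapsin response mediators that relay Sema3a signals, differed by 4.06 log2 in mutants (SE 0.56) and 4.52 log2 in controls (SE 0.39). Mical3, an actin-oxidizing family member, differed by 3.36 log2 in mutants (SE 0.53) and 3.42 log2 in controls (SE 0.37). The kinase gene Gsk3b differed by 3.13 log2 in mutants (SE 0.31) and 3.31 log2 in controls (SE 0.22), and the Ras-family gene Mras by 2.0 log2 in mutants (SE 0.40) and 2.61 log2 in controls (SE 0.28). Dpysl2 and Farp2 were also higher in both genotypes, and Rras and Rock1 passed in controls, though not without spermatocyte replicate 1 (0.85 and 0.95 log2) or, for Rock1, without replicate 2 of either cell type (0.96 log2 each). The list gene that was lower was Arhgef11, whose product is bound by class B plexins, at -1.28 log2 in mutants (SE 0.28, limma adjusted p = 0.00208). In controls Arhgef11 differed by -0.96 log2 (SE 0.20, limma adjusted p = 0.000974), just under a fold of 2. Its interaction of genotype and cell type did not pass (-0.32 log2, limma adjusted p = 0.923). Without mutant spermatocyte replicate 2 the mutant difference was -0.98 log2, also under a fold of 2.

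**Figure D4:**
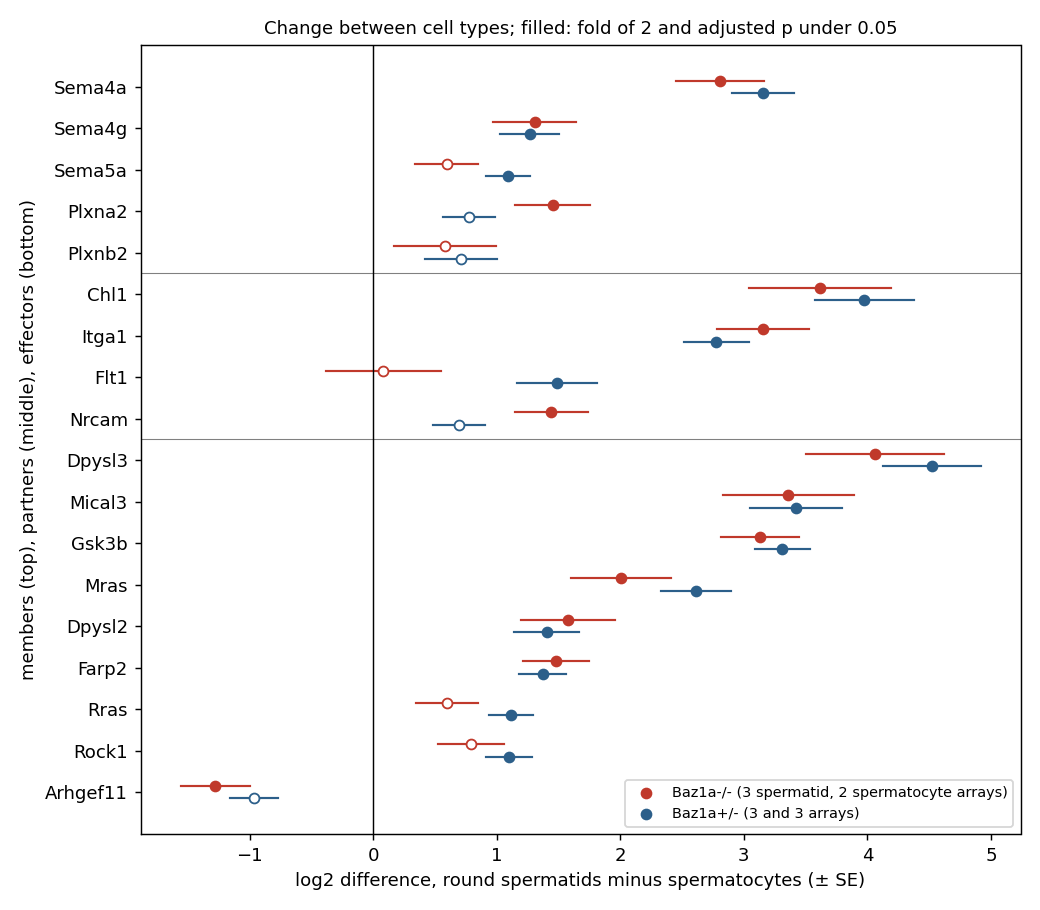
Log2 difference between round spermatids and spermatocytes in Baz1a-/- (red) and Baz1a+/- (blue) cells, with SE, for 5 members (top) and for the partner and effector genes that passed in either genotype (middle and bottom); filled points passed a fold of 2 and an adjusted p under 0.05. Sema4a, Chl1, Itga1, Dpysl3, Mical3 and Gsk3b lie at 2.78 log2 or more in both genotypes, and Arhgef11 lies below 0.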

How the data were processed

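Probe signals and detection p-values were deposited for 12 arrays. The signal is a linear bead intensity that the authors exported from Illumina software (GenomeStudio 2011.1 in the submitters' processing notes, BeadStudio in the methods) without background subtraction. The detection p-value was computed by that software from negative-control beads. The authors also deposited log2 values, made in limma (3.12.1 in the processing notes) by a normexp step that used control probes, followed by quantile normalization.

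Here the intensities were corrected by normexp (limma 3.58.1, R 4.3.3; offset 16), with the negative controls inferred from the detection p-values, and the 12 arrays were quantile normalized together; values differed from the deposited log2 ones by at most 0.0458. The 4 groups were fitted in limma (lmFit with arrayWeights, then eBayes) on 11 arrays over the 28751 probes detected at p under 0.05 on at least 1 array. A probe passed at a 2-fold difference with a p under 0.05 after Benjamini-Hochberg adjustment. The authors removed probes of poor annotation quality, and that annotation was not used here. Of 45281 probes, 34885 have 1 gene symbol in the platform table, 18 several and 10378 none; 1 probe naming Nrp2 beside an older symbol was left out. The number of arrays (2 or 3 per group) limits the precision. The steps were tested on simulated data.

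The labels give each mouse's number, so spermatid and spermatocyte arrays of a mouse are paired: deviations from group means correlated at -0.043 to 0.227 within a mouse and at -0.222 to 0.169 between mice. The members and the gene lists were chosen with earlier results of these data known. Named with a test were members that passed in any comparison and up to 3 non-overlapping ones with the largest difference that did not pass, leaving out those undetected in both groups; Plxnb2 was added after its values were seen, as was the Nrp1 interaction. Alternatives changed the background correction, scaling, detection filter, weights, groups in the fit, fold minimum, pairing and arrays left out.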

Additional observations from a re-analysis of the deposited data

Results flagged for a closer look

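The Baz1a-/- spermatocyte array that was left out of the tests (replicate 1) had 11 member probes detected, and 5 of them were detected on no Baz1a+/- spermatocyte array (of 57 members detected on none of these). Sema3f (ILMN_2635631) read 5.27 log2 on it, against 4.37 to 4.55 in Baz1a+/- spermatocytes. Sema5a (ILMN_2604226) read 5.08, against 4.58 to 4.79. Plxnb1 (ILMN_1246710) read 4.98, against 4.44 to 4.78. Sema4g (ILMN_2718314) read 4.80, against 4.48 to 4.53, and Plxnd1 (ILMN_2550095) read 4.79, against 4.46 to 4.67. Over the 11 tested arrays of both cell types, the highest readings of these probes were 4.90 for Sema3f and 4.97 for Plxnb1. They were 5.81 for Sema5a, 6.31 for Sema4g and 5.26 for Plxnd1. The array's round spermatid marker mean was 11.02, between the Baz1a+/- spermatid range (12.11 to 12.29) and the Baz1a+/- spermatocyte range (7.73 to 9.42), and its part in these readings was not tested. Groups held at most 3 arrays, too few to look for single outlying arrays.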

How the results depend on the processing

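Members called numbered 2 (spermatid genotype), 1 (spermatocyte genotype), 3 (development in mutants), 3 (development in controls) and 0 (interaction). Without background correction development gave 1 in mutants and 1 in controls, and an offset of 50 gave 2 in mutants and 1 in controls; Sema4g was lost in both genotypes under both settings, Sema5a in controls under both, and Plxna2 in mutants without background correction. Over all probes, counts with 1 array left out ran between 31 and 612 (spermatocyte genotype, 118 with all arrays) and between 17 and 134 (interaction, 44). Testing every probe gave 1 in the spermatid genotype comparison. Leaving out 1 array in turn gave 1 to 2 (spermatid genotype), 1 to 2 (spermatocyte genotype), 2 to 3 (development in mutants), 3 to 4 (development in controls) and 0 to 0 (interaction). Plxna2 kept both genotype calls in every alternative. With the replicate number as a block the counts were 2, 1, 3, 3 and 0, and no member call changed, nor with mouse as a random block. Between genotypes same-numbered arrays deviated together at r 0.0748 to 0.539. Differences that changed sign were Plxnb2 in spermatocytes (-0.049 with median scaling, which moved the median of all probes to -0.16 there) and in spermatids (-0.14 without control replicate 1, and -0.14 to 0.51 over all arrays left out), Sema4g in spermatids (-0.028 and -0.079 without mutant replicates 2 and 3, and -0.079 to 0.49 over all arrays left out) and the Sema4a interaction (0.39 without mutant spermatocyte replicate 3, and -1.07 to 0.39 over all arrays left out); the cause was not tested. None of these had passed. Median scaling also moved the median of all probes to -0.10 for development in controls and to 0.17 for the interaction, and it took Sema5a below a fold of 2 (0.95 log2).

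The partner and effector counts were run under the same alternatives, added after the data were seen. For partners, the spermatid genotype count was 0 without background correction, 0 with an offset of 50 and 2 with no fold minimum; the spermatocyte one was 2 with median scaling, 1 without weights, 2 with the left-out array kept and 1 with the replicate block, and 0 to 1 with 1 array left out. For effectors, development in mutants gave 4 without background correction, and development in controls gave 4 without it, 4 with an offset of 50 and 15 with no fold minimum; the genotype counts were 1 in spermatids with no fold minimum, 2 in spermatocytes with the left-out array kept and 0 to 2 there with 1 array left out. Most members lie near background, where the offset sets the size of a difference.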
